A study of Mus musculus with 22 samples.

Results

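The genes described here are 10 transcripts of the arm of the stress response that runs through the transcription factors ATF4 and CHOP. They are Atf4 itself, Ddit3, which encodes CHOP, the related factor Atf3, and 7 genes known as their targets (Trib3, Chac1, Sesn2, Ddit4, Asns, Psat1 and Phgdh). They were found by matching the accession of each array probe to a gene symbol. All 10 were on the array, by 13 probes, among 20018 named genes and 55681 probes in all. The 10 genes were chosen from the log2 ratios of these same arrays with earlier results known, so their changes with dose are given as a description, with a standard error (SE) and no p-value.

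All groups used 1 line, FE1, lung epithelial cells of the Muta Mouse strain that became immortal in culture on their own. The strain carries a lacZ reporter transgene, so every group carries it too. The agent was Mitsui7, a multi-walled carbon nanotube, given for 24 h. The low dose was 12.5 µg/ml, measured on 6 arrays, the medium dose 25 µg/ml on 5, the high dose 100 µg/ml on 6, and the control 0 µg/ml on 5. On each of the 22 arrays the FE1 sample was labelled with Cy5 and a universal mouse reference RNA, pooled from cell lines, with Cy3. A value is therefore a log2 ratio of FE1 to the reference RNA, 0 means an equal signal, and a change is a difference of log2 ratios between groups. By the methods of the study, there were fewer separate exposure experiments than arrays per group, and which arrays shared an experiment is not given. Arrays of a group are therefore not all independent, the errors and p-values treat them as if they were, and both may be too small.

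Detected probes ranged from 23688 to 39139 per array, and each of the 13 probes was detected on all 22 arrays. The array number limits the precision of each value. All 5 control arrays were most like the other controls, but 6 exposed arrays correlated better with another group than with their own. Low dose replicate 1 (r of -0.378 with its own group and 0.527 with the medium dose) and medium dose replicate 2 (-0.349 with its own group and 0.155 with the low dose) stood farthest from their labels, and low dose replicate 2 was nearest to the control (0.2). Counts are therefore also given without these arrays. Of the 6 epithelial markers, Krt8 and Krt18 were detected on all 22 arrays, Krt19 on 21, Cldn4 on 16, Epcam on 10 and Cdh1 (E-cadherin) on 0. The keratins lay far below the reference RNA, at control log2 ratios of -4.35, -5.62 and -4.91, while Cldn4 read 0.28. Of the 5 alveolar and club cell markers, Scgb1a1 was detected on 21 arrays (control log2 ratio 0.35), Aqp5 on 20 (-2.62), Sftpc on 17 (0.43), Sftpb on 3 and Sftpa1 on 0. None of these 11 was called at the high dose. With no background subtracted, probes near background can read near 0, and Cdh1 and Sftpa1, detected on 0 arrays, read -0.32 and 0 on the controls. The ratios of Cldn4 and Sftpc therefore do not place them above the reference RNA. All 5 fibroblast markers were detected on every array, and Col1a1, Col1a2, Col3a1 and Pdgfra fell at the high dose by 1.34, 1.52, 1.7 and 1.53 on the log2 scale (limma adjusted p = 1.1e-05, 1.77e-06, 2.22e-07 and 5.49e-09), while Vim changed by 0.14 (adjusted p = 0.847). The mean log2 ratio of these 5 markers lay between 0.29 and 0.72 on control arrays, -0.7 and 0.24 at the low dose, -0.65 and -0.37 at the medium dose, and -0.87 and -0.36 at the high dose. Their part in the changes below was not tested. Of the leukocyte markers, Ptprc was detected on 21 arrays and Lyz2 on 6, and of the endothelial markers Pecam1 on 21 and Cdh5 on 1. Detection of a marker alone therefore does not tell a cell type here. In RNA from a whole culture, fewer cells of a type and less RNA per cell cannot be told apart.

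ATF4 is a basic leucine zipper factor whose mRNA is translated when the initiation factor eIF2 is phosphorylated. The kinases that do so sense misfolded protein in the endoplasmic reticulum, lack of amino acids, lack of haem or double-stranded RNA. ATF4 pairs with C/EBP factors on a composite element, the C/EBP-ATF response element, and raises genes for amino acid synthesis and import, tRNA charging and glutathione supply, together with CHOP and ATF3. CHOP in turn raises genes that restart protein synthesis and, under lasting stress, genes of cell death. ATF6 and IRE1 are the other sensors of the endoplasmic reticulum and mainly raise its chaperones.

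The promoter windows of these genes are shown first because 4 of the genes share a short sequence there. In the RefSeq table of promoters for GRCm38.p6, all 10 genes were found, by 11 windows of 300 bases (250 before and 50 after the start). The core of the C/EBP-ATF response element, TGATGNAA on either strand, was in the windows of Atf3, Chac1, Trib3 and Asns, which makes 4 of 10 genes, against 4.51% of all 27025 genes in the table and 3.97% of its 32851 windows. The other 6 genes held no match in this window. Each stretch below runs 5′ to 3′ on the strand of the gene, with the motif in capitals.
Atf3 (chr1:191183425-191183454, minus strand): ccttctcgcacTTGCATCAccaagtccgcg
Chac1 (chr2:119351038-119351067, plus strand): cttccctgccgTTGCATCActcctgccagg
Trib3 (chr2:152344028-152344057, minus strand): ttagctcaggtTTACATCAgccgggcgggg
Asns (chr6:7693214-7693243, minus strand): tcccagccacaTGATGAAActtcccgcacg

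The first base of the motif lay 110 bases before the start in Atf3, 193 before it in Chac1, 23 before it in Asns and 15 after it in Trib3. Atf3 and Chac1 carried the same 8 letters, TTGCATCA, which is the motif read on the opposite strand. The palindrome TGACGTCA, bound by CREB and ATF dimers, was in 0 of the 10 genes, 2.03% of all genes and 1.79% of all windows. A match is a description of letters and not a measurement of binding. The 250 bases before the start are given for Atf3 and Chac1, the pair with the largest changes at the high dose, with the same motif in capitals.
Atf3 (chr1:191183334-191183583, minus strand): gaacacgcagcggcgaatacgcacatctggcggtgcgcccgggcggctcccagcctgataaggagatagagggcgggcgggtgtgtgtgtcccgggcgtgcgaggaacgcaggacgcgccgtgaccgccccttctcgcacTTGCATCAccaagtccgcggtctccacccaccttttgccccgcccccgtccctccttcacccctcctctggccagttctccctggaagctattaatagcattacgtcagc
Chac1 (chr2:119350992-119351241, plus strand): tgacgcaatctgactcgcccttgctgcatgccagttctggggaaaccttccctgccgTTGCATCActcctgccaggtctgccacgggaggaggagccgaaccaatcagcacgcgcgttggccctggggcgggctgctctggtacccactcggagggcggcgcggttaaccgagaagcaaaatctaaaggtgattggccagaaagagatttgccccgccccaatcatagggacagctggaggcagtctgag

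These 250 bases were 65.2% G and C in Atf3 and 60.8% in Chac1. Over the whole windows, G and C made up 47.7% (Phgdh) to 69% (Ddit4) in the 10 genes, against a median of 52.7% in all windows.

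The 10 genes did not move as 1 block. A gene was called where its brightest probe passed a limma adjusted p of 0.05 over all probes, differed by 1.5-fold or more, and was detected on 4 or more arrays of either group. By this rule 6 of the 10 were higher at the low dose, 7 at the medium dose and 7 at the high dose, and 0 were lower at any dose. Over all named genes tested, 2.22% were called higher and 3.06% lower at the low dose, 4.27% and 4.68% at the medium dose, and 5.47% and 6.45% at the high dose. The genes were chosen from these changes, so nothing is read from the difference. Their median log2 change was 0.9, 1.07 and 1.26 in order of dose, where the median of all genes was 0, 0 and 0.01. Atf3, Ddit3, Trib3, Chac1, Sesn2 and Asns were called at all 3 doses, Atf4 at the medium and high dose, and Ddit4, Psat1 and Phgdh at none.

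**Figure D1:**
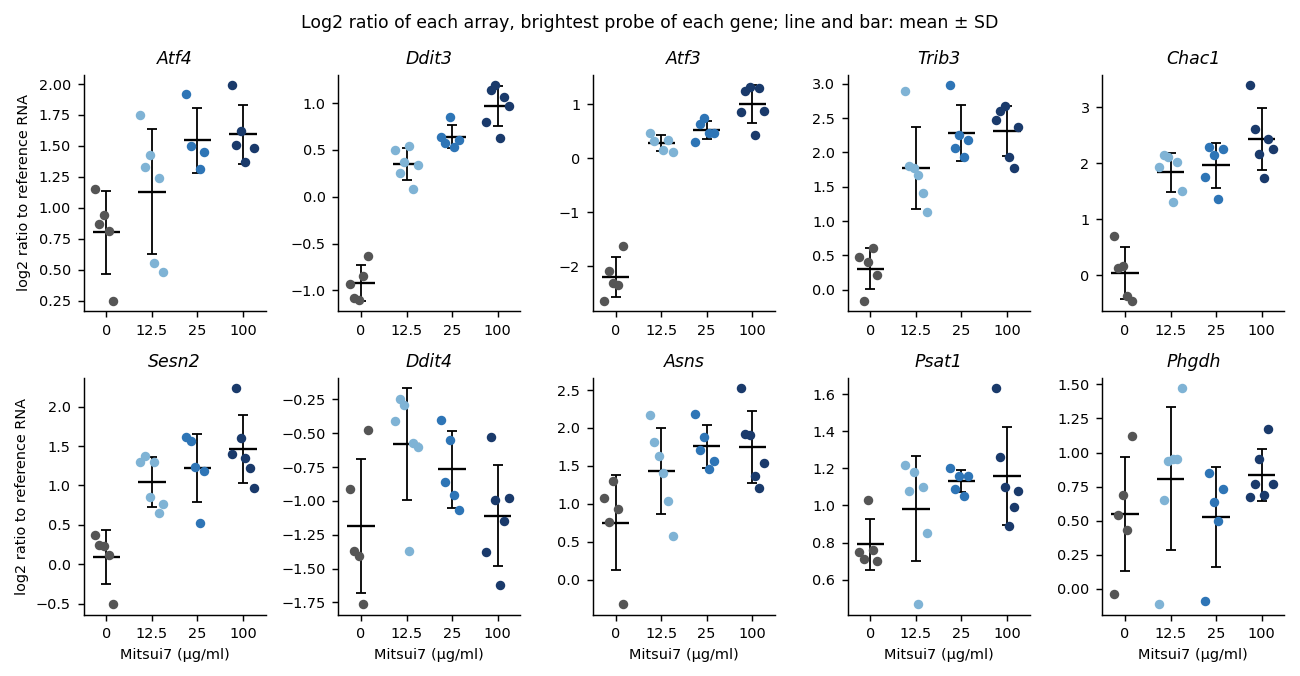
Log2 ratio to the reference RNA (vertical axis, its range differs between panels) of every array with a value against the Mitsui7 dose in µg/ml (horizontal axis) for the brightest probe of each of the 10 genes, with the mean and SD of each group as a line and bar. Every exposed array lies above every control array for Ddit3, Atf3, Trib3, Chac1 and Sesn2, while the groups overlap for Ddit4 and Phgdh.

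Atf4, the factor that heads the arm, changed little at the low dose. Its brightest probe read 1.15, 0.87, 0.94, 0.81 and 0.25 on the control arrays. At the low dose it ran from 0.48 to 1.75 with a median of 1.29, and 2 of the 6 arrays fell among the controls. The medium dose arrays with a value read 1.92, 1.5, 1.31 and 1.45, and the 5 high dose arrays with a value ran from 1.37 to 1.99 with a median of 1.51. Medium dose replicate 3 and high dose replicate 5 carried an outlier mark and gave no value. All measured medium and high dose arrays thus lay above all controls, whereas the low dose spanned both. The log2 change was 0.3 ± 0.15 (SE) at the low dose, 0.78 ± 0.16 at the medium dose and 0.79 ± 0.15 at the high dose, which is 1.23-, 1.72- and 1.73-fold.

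The dimmer probe of Atf4 did not follow this order. It read 1.32, 1.37, 0.91, 0.09 and 0.64 on the control arrays and 1.45, 2.35, 1.15, 0.76 and 0.23 at the medium dose. At the low dose it ran from -0.4 to 2.26 and at the high dose from 0.06 to 2.34, so every group overlapped every other. Its log2 change was 0.07 ± 0.21 (SE) at the low dose, 0.32 ± 0.21 at the medium dose and 0.18 ± 0.21 at the high dose, and it was not called. Its values went with the slide or the number of the sample, which largely coincide, more than with the dose. In all 4 groups replicate 2 was the highest array and replicate 1 the next, and both were on slide 1. With slide effects removed, replicate 2 was still the highest at the low and high dose (1.46 and 1.54). In the control it then read 0.57 against 1.16 on replicate 5, and at the medium dose 1.55 against 1.59 on replicate 4. With the median of both probes in place of the brighter one, Atf4 was called at no dose (0.49 and 0.43 at the medium and high dose), so the Atf4 result holds for the brighter probe alone.

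**Figure D2:**
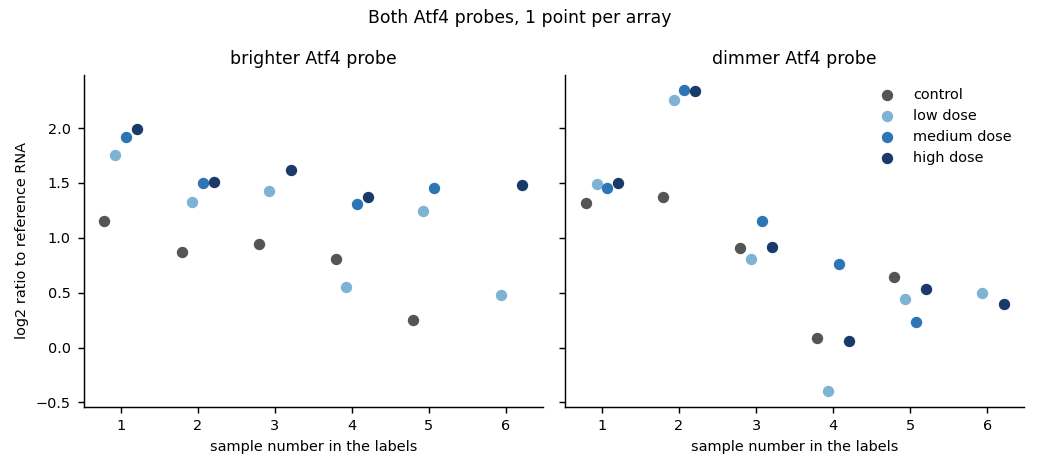
Log2 ratio to the reference RNA (vertical axis) of the brighter (left) and dimmer (right) Atf4 probe on each array against the number of the sample in the labels (horizontal axis), with 1 point per array, coloured by group. The brighter probe separates the medium and high dose from the control, while the dimmer probe reaches 1.37 to 2.35 in replicate 2 of every group. Replicates 1 and 2 of every group were on slide 1.

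Ddit3 encodes CHOP and rose in steps that hardly overlapped. Control arrays read -0.93, -1.08, -1.1, -0.85 and -0.63. Low dose arrays ran from 0.08 to 0.54 with a median of 0.35, medium dose arrays read 0.64, 0.57, 0.85, 0.53 and 0.61, and high dose arrays ran from 0.63 to 1.19 with a median of 1.01. Every exposed array lay above every control, and every high dose array lay above every low dose array. The log2 change was 1.28, 1.56 and 1.9 in order of dose, each ± 0.12 (SE), or 2.43-, 2.94- and 3.74-fold. The difference between the high and the low dose, 0.62 ± 0.11, made Ddit3 the 1 gene of the 10 called between these doses. Of all named genes 0.0844% were called higher and 0.373% lower in that comparison.

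Atf3, a repressor of the ATF family that stress of many kinds induces, changed more than any of the other 9 genes at each dose. It went from -2.63, -2.09, -2.3, -2.35 and -1.63 on control arrays, well under the reference RNA, to 0.29, 0.63, 0.74, 0.47 and 0.47 at the medium dose. Low dose arrays ran from 0.12 to 0.47 (median 0.31) on the 5 arrays with a value, since low dose replicate 3 was marked as an outlier, and high dose arrays from 0.43 to 1.31 (median 1.05). The gap to the control was wide at every dose, and 5 of the 6 high dose arrays lay above every medium dose array. The log2 change was 2.47, 2.72 and 3.17, each ± 0.16 (SE), which is 5.53-, 6.58- and 8.97-fold. By the ratio that the scanner software computed from its own processed signals it was 3.18, 3.33 and 3.81, so the size of the fold depends on the processing.

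Trib3, a pseudokinase that ATF4 and CHOP raise and that restrains AKT and ATF4, read 0.47, -0.16, 0.4, 0.6 and 0.22 on the controls. It ran from 1.13 to 2.89 (median 1.72) at the low dose, read 2.98, 2.07, 2.26, 1.93 and 2.18 at the medium dose, and ran from 1.78 to 2.68 (median 2.42) at the high dose. All exposed arrays were above all controls, and no high dose array was above the highest medium dose array. The log2 change was 1.56 ± 0.22 (SE), 1.98 ± 0.23 and 2.09 ± 0.22, or 2.95-, 3.94- and 4.26-fold. Low dose replicate 1, which stood apart from its group, was the highest of the low dose arrays here, and without it and medium dose replicate 2 the low dose change was 1.36.

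Chac1 encodes an enzyme that cleaves glutathione and is a common readout of this arm. It read 0.71, 0.14, 0.16, -0.36 and -0.45 on the controls and 1.76, 2.29, 2.14, 1.36 and 2.26 at the medium dose. It ran from 1.31 to 2.15 (median 1.98) at the low dose and from 1.74 to 3.39 (median 2.35) at the high dose. The exposed and control arrays did not overlap, while the 3 doses overlapped each other. The log2 change was 1.78, 1.93 and 2.37, each ± 0.18 (SE), which is 3.44-, 3.8- and 5.19-fold.

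Sesn2 and Ddit4 both encode inhibitors of the growth kinase mTORC1, and they parted. Sesn2 read 0.37, 0.25, 0.23, 0.12 and -0.5 on the controls and 1.61, 1.56, 1.24, 0.53 and 1.18 at the medium dose, and ran from 0.65 to 1.38 (median 1.08) at the low dose and from 0.97 to 2.23 (median 1.37) at the high dose. All exposed arrays lay above all controls, by log2 changes of 1.01, 1.13 and 1.43, each ± 0.16 (SE), or 2.01-, 2.18- and 2.69-fold. Ddit4 read -0.91, -1.37, -1.41, -1.76 and -0.48 on the controls and -0.4, -0.86, -0.55, -0.96 and -1.07 at the medium dose. It ran from -1.37 to -0.25 (median -0.49) at the low dose and from -1.62 to -0.53 (median -1.07) at the high dose, so the highest median was at the low dose and every dose overlapped the control. Its log2 change was 0.61 ± 0.18 (SE), 0.42 ± 0.19 and 0.08 ± 0.18 in order of dose and was called at none. Without control replicate 5, its highest control, it was 0.8 at the low dose and 0.61 at the medium dose and was called at both. From the low to the high dose it was -0.53 ± 0.17, which was not called. By their brightest probes the other 9 genes had the opposite sign, though Phgdh changed by only 0.03 ± 0.17. The other Psat1 probe changed by -0.17 ± 0.19 between these doses.

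The 3 genes of amino acid synthesis also differed among themselves. Asns makes asparagine from aspartate and glutamine. It read 1.08, 0.76, 1.3, 0.93 and -0.32 on the controls, 2.18, 1.71, 1.88, 1.46 and 1.56 at the medium dose, and ran from 0.58 to 2.17 (median 1.51) and from 1.21 to 2.52 (median 1.72) at the low and high dose. The medium dose lay wholly above the control, while 2 low dose arrays and 1 high dose array did not. The log2 change was 0.78 ± 0.18 (SE), 1.01 ± 0.19 and 1.09 ± 0.18, or 1.72-, 2.01- and 2.12-fold. The low dose call was lost under 10 of the 45 alternatives, among them the fits without control replicate 2, without control replicate 5 and without low dose replicate 1, where the change was 0.63 to 0.7. Control replicate 5 was the lowest control here.

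Psat1 and Phgdh catalyse steps of serine synthesis, and neither was called at any dose. The brighter Psat1 probe read 0.75, 0.71, 1.03, 0.76 and 0.7 on the controls and 1.2, 1.09, 1.16, 1.05 and 1.16 at the medium dose, so these groups did not overlap, yet its log2 change there was only 0.34 ± 0.12 (SE). At the low and high dose it ran from 0.47 to 1.22 (median 1.09) and from 0.89 to 1.63 (median 1.09), with changes of 0.2 ± 0.11 and 0.38 ± 0.11. The other Psat1 probe changed by 0.39 ± 0.2, 0.32 ± 0.21 and 0.21 ± 0.2. Phgdh, the first enzyme of the route, read -0.04, 0.54, 0.69, 0.43 and 1.12 on the controls and -0.09, 0.85, 0.64, 0.5 and 0.73 at the medium dose. It ran from -0.11 to 1.47 (median 0.94) and from 0.67 to 1.17 (median 0.77) at the low and high dose, and all groups overlapped. Its brighter probe changed by 0.21 ± 0.18, -0.02 ± 0.19 and 0.24 ± 0.18, and its other probe by 0.16, 0 and 0.29, each ± 0.22.

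**Figure D3:**
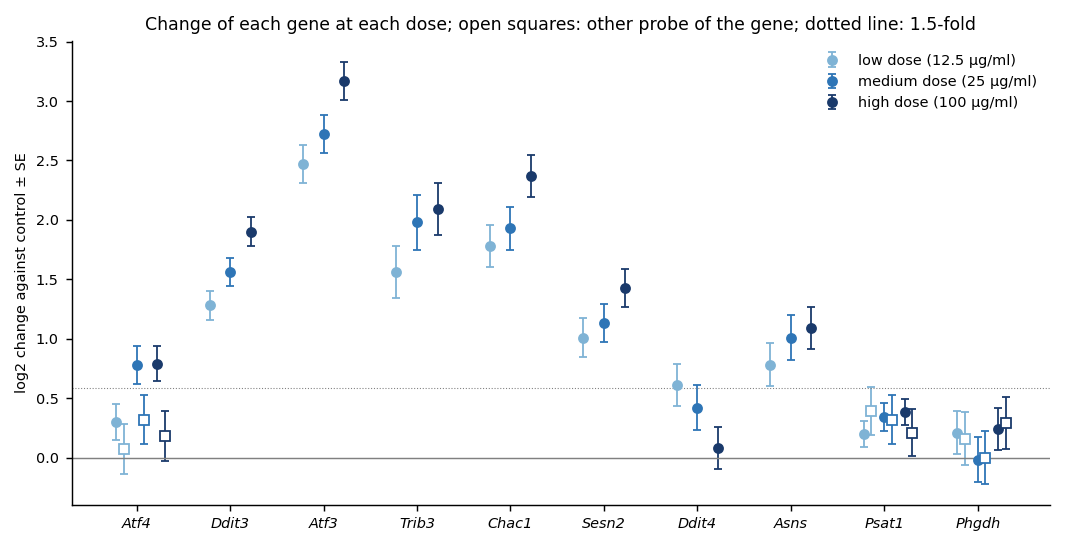
Log2 change against control ± SE (vertical axis) of each of the 10 genes (horizontal axis) at the low, medium and high dose, as filled circles for the brightest probe and open squares for the other probe of Atf4, Psat1 and Phgdh, with the 1.5-fold line dotted. The change grows from the low to the high dose in Ddit3, Atf3, Trib3, Chac1, Sesn2 and Asns and shrinks in Ddit4 from 0.61 to 0.08.

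In 5 of the 10 genes every low dose array lay above every control array, in 8 every medium dose array and in 6 every high dose array with a value. Over all named genes tested, the share was 2.25%, 5.08% and 5.67%. In none of the 10 did the low and medium dose, or the medium and high dose, fail to overlap, so the order of neighbouring doses was not separated by the arrays. On slides that held both groups, each exposed array minus the mean of the controls was positive for Ddit3, Atf3, Trib3, Chac1, Sesn2 and Asns at each dose. Ddit3 differed from its slide controls by 1.49 to 2.29 at the high dose and Atf3 by 2.5 to 3.61.

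The patterns of the 10 genes over the arrays were compared in pairs by the root-mean-square (RMS) difference of their log2 ratios, each gene centred on its own mean and with slide effects removed. Atf4 and Psat1 were the closest pair (0.242), followed by Asns and Atf4 (0.255) and by Ddit3 and Sesn2 (0.293). Atf3 and Phgdh were the farthest apart (1.19). The measure grows with the size of the changes, so genes that changed little lie close whatever their pattern. Psat1 and Phgdh, called at no dose, were closer (0.368) than Chac1 and Ddit3 (0.392), called at every dose. Atf4 stands here for its brighter probe alone. Outside the 10 genes and the lists below, the nearest genes to Atf4 were Wdr12, Wdr73 and Arih1, with RMS differences of 0.124, 0.127 and 0.127 over 20 arrays, against a median of 0.437 over the 9831 genes compared. Nearest to Ddit3 were Cmtm3 (0.185), Ndrg1 (0.198) and Ankrd1 (0.215) over 22 arrays, against a median of 0.75. Nearest to Atf3 were Prl2c1 (0.309), Prl2c5 (0.365) and Gsto2 (0.382) over 21 arrays, against a median of 1.26. The Prl2c genes are near copies of each other, so their probes may not be separate measurements.

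The wider pathway was described by 84 genes of 11 lists that are not among the 10, chosen with earlier results of these data known, with p-values adjusted over all probes. Over all named genes tested, 2.22%, 4.27% and 5.47% were called higher at the low, medium and high dose and 3.06%, 4.68% and 6.45% lower. The list counts below stand beside these shares and were not tested against them. The list of eIF2 kinases and phosphatase subunits, which also holds the eIF2 subunit gene Eif2s1, had 1 gene called higher by its brightest probe. Ppp1r15a (GADD34), which CHOP raises and which directs the phosphatase that removes phosphate from eIF2, went from -1.75, -1.19, -1.48, -1.23 and -0.92 on the controls to 0.15, 0.02, 0.15, 0 and 0.4 at the medium dose. It rose by 1.25, 1.46 and 1.87 (each ± 0.15 SE) on the log2 scale with the dose (adjusted p = 3.62e-05, 4.72e-06 and 7.16e-08), and no exposed array overlapped the controls. Eif2ak3, the gene of the kinase PERK, fell by 0.6 ± 0.11 (SE) on the log2 scale at the high dose (adjusted p = 0.00106). That call was lost under 8 of 45 alternatives, among them without control replicate 1, control replicate 4 or high dose replicate 2 (-0.58 to -0.52). By their brightest probes the other 5 of the 7 genes were not called at any dose, although 2 genes of the list were called higher at the high dose without control replicate 1, control replicate 4 or high dose replicate 2. At the high dose the brightest Eif2s1 probe changed by 0.56 (adjusted p = 0.00356), under the 1.5-fold limit. Its other probe was called there (0.61, adjusted p = 0.00135).

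Among the leucine zipper partners and regulators, 3 of 7 were called higher at each dose and 1 lower. Nupr1, a small stress-induced chromatin protein, rose by 1.47 ± 0.1 (SE), 1.25 ± 0.1 and 1.23 ± 0.1 (adjusted p = 3.24e-08, 1.34e-07 and 5.55e-08). Cebpa rose by 0.83, 0.77 and 0.92 (adjusted p = 0.000355, 0.00063 and 4.25e-05). Cebpb, a partner of ATF4 and CHOP, was called at the low (0.65, adjusted p = 0.00356) and high dose (0.69, adjusted p = 0.000822), and Cebpg at the medium dose (0.59, adjusted p = 0.00186). Without control replicate 3 the low dose change of Cebpb was 0.56 and not called. Cebpd went the other way and fell by 1.08, 1.15 and 1.33 (each ± 0.13 SE; adjusted p = 3.26e-05, 1.14e-05 and 6.72e-07), and no exposed array reached the lowest control.

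Of 6 secreted and other ATF4 targets, 4 were called higher at the low dose, 3 at the medium and 5 at the high dose. Fgf21, a hormone of energy balance, rose by 1.8 ± 0.16 (SE), 1.65 ± 0.17 and 1.57 ± 0.16 (adjusted p = 1.37e-06, 2.89e-06 and 1.77e-06), and it was above background on 3 of the 5 control arrays and on every exposed array. With detection required in both groups it was not called at any dose, and by the ratio of the scanner software its change was 2.84, 2.65 and 2.56. Gdf15, a stress cytokine, rose by 1.35, 1.35 and 1.4 (adjusted p = 1.69e-05, 1.28e-05 and 2.97e-06). Adm2, a peptide of the calcitonin family, rose by 1.38, 1.22 and 1.56 (adjusted p = 0.000676, 0.00152 and 5.87e-05). Eif4ebp1, a brake on translation, was called at the low (0.76, adjusted p = 0.0012) and high dose (0.96, adjusted p = 3.52e-05), and Stc2 at the high dose (0.64, adjusted p = 0.0262). Vldlr was not called at any dose. Without control replicate 5 or without medium dose replicate 4, 5 of the 6 were called at the medium dose.

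The genes that supply and charge amino acids moved upward in part. Of 12 aminoacyl-tRNA synthetases 3, 4 and 6 were called higher at the low, medium and high dose and 0 lower. Tars rose by 0.8, 0.83 and 0.9 (each within ± 0.1 SE; adjusted p = 2.59e-05, 1.43e-05 and 1.84e-06) and Sars by 0.69, 0.81 and 0.98 (adjusted p = 0.00417, 0.000722 and 4.28e-05), while Aars (0.76, adjusted p = 1.89e-05) and Lars (0.77, adjusted p = 0.0133) were called at the high dose only. The other Aars probe changed by 0.17 (adjusted p = 0.516), and without control replicate 2 or 3 Lars was not called (0.62 to 0.7). Without control replicate 2 the number called was 3 at the high dose and 2 at the medium dose, where it was also 2 without control replicate 5 or medium dose replicate 5. Of 9 amino acid transporters 3, 3 and 4 were called higher. Slc7a11, the cystine importer, rose by 0.9, 0.85 and 0.67 (adjusted p = 8e-04, 0.00105 and 0.00421), Slc7a1, a carrier of basic amino acids, by 0.83, 0.94 and 0.89 (adjusted p = 0.00125, 0.00022 and 0.000155), and the glycine carrier Slc6a9 by 0.83, 0.73 and 0.83 (adjusted p = 0.00094, 0.00222 and 0.000388). Slc3a2, the heavy chain that several of these carriers share, was called at the high dose (0.92, adjusted p = 0.0113). Without control replicate 2 the high dose change of Slc7a11 was 0.55 and not called. The other Slc6a9 probe changed by 0.42 at the low dose (adjusted p = 0.253) and was not called there. At the medium and high dose it was called (0.73 and 0.68, adjusted p = 0.014 and 0.0145).

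Of 6 other amino acid enzymes with a probe, 0, 3 and 3 were called higher. Cth, which makes cysteine, changed by 0.66 (adjusted p = 0.108), 0.89 (0.0166) and 1.03 (0.00284), Got1 by 0.45 (0.0404), 0.72 (0.000808) and 0.81 (0.000115), and Gpt2 by 0.58 (0.0658), 0.81 (0.00647) and 0.63 (0.0227) in order of dose. Some of these calls rested on 1 array: Cth was lost at the medium dose without control replicate 3 or medium dose replicate 1 (0.81 to 0.87), and Gpt2 at the high dose without control replicate 1, 2 or 3 or high dose replicate 2 (0.48 to 0.62). Without the 8 arrays of slide 1 the high dose changes were 0.59 for Cth and 0.34 for Gpt2. At the low dose 2 genes were called without control replicate 5 and 1 without control replicate 4 or low dose replicate 4. The same 2, Gpt2 and Cth, were called there with the sample number as a block in place of the slide.

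In the list of serine, glycine and one-carbon enzymes, limma called 0 of 6 at each dose by the brightest probe, with median log2 changes of 0.26, 0.38 and 0.34. Mthfd1l, an enzyme of mitochondrial folate, had a change of 0.4 at the high dose (adjusted p = 0.00136), under the 1.5-fold limit. Psph, which completes serine synthesis, changed by 0.72 at the high dose by its brightest probe (adjusted p = 0.103), and its other probe was called at the medium dose (0.77, adjusted p = 0.00502). Without control replicate 5, 1 of the 6 was called at the low and at the high dose, and without low dose replicate 6 at the medium and high dose. It was also 1 at the high dose without high dose replicate 6 and with the sample number as a block.

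Several of these genes also held the C/EBP-ATF core. It was in the windows of 14 of the 66 listed genes found in the promoter table, beside the 4.51% of all genes given above, and the palindrome TGACGTCA in 2, Btg2 and Ppp1r15a, beside 2.03% of all genes. The stretches of the 3 genes called at all doses with a match before the start in the lists of secreted targets, leucine zipper regulators and transporters are given, with Ppp1r15a beside them for the palindrome.
Fgf21 (chr7:45615611-45615640, minus strand): agacccccccaTTGCATCAtccgtccaggc
Nupr1 (chr7:126625562-126625591, minus strand): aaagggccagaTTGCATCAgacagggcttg
Slc7a11 (chr3:50443661-50443690, minus strand): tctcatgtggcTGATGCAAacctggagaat
Slc7a11 (chr3:50443642-50443671, minus strand): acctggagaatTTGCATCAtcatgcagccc
Ppp1r15a (chr7:45526262-45526291, minus strand): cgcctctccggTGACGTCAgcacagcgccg

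Fgf21 and Nupr1 thus held the same 8 letters as Atf3 and Chac1. Slc7a11 held the motif once on each strand. Of the 14 listed genes with the core, Herpud1, Iars, Jdp2, Pck2, Slc1a4, Vldlr and Yars were not called at any dose. The high dose changes of Jdp2, Pck2 and Vldlr were 0.34, 0.33 and 0.37 (limma adjusted p = 0.293, 0.0582 and 0.199).

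**Figure D4:**
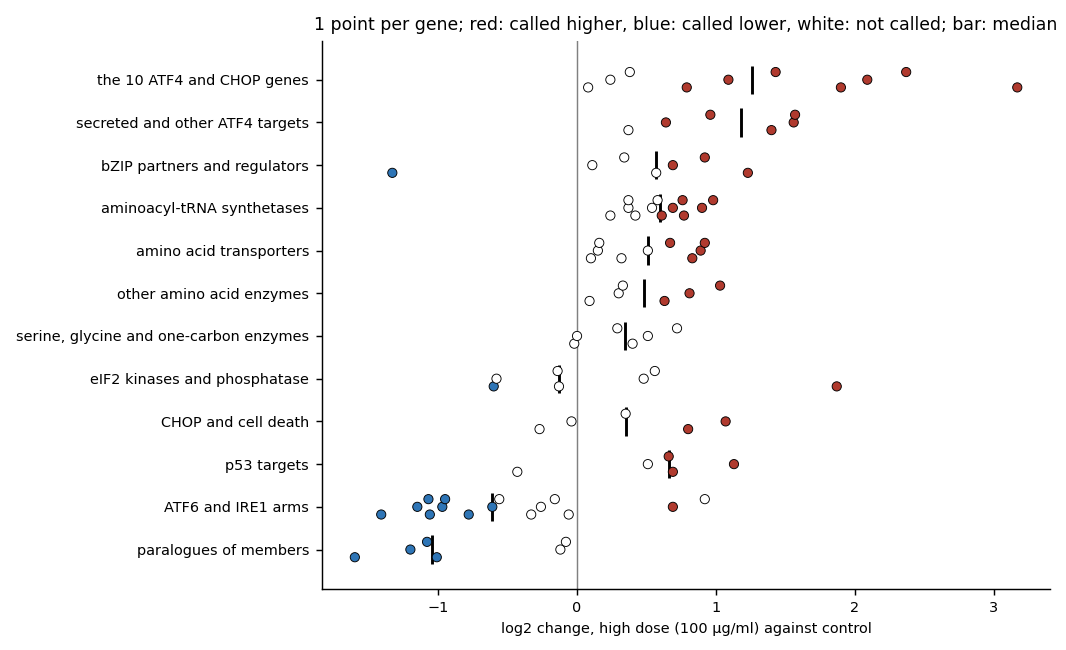
Log2 change at the high dose against control (horizontal axis) of the 10 ATF4 and CHOP genes and of the listed genes, with 1 point per gene in the row of its list (vertical axis), red where called higher, blue where called lower and white where not called, and a bar at the median of each list. The ATF6 and IRE1 genes lie mostly below 0, with 8 called lower and 1 higher, and the 6 paralogues have 4 called lower and 0 higher.

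In the list of ATF6 and IRE1 genes more were called lower than higher. Of 15 genes 5, 6 and 8 were called lower at the low, medium and high dose and 2, 1 and 1 higher, with median log2 changes of -0.47, -0.52 and -0.61. Dnajc3, a co-chaperone that restrains PERK, read 2.5, 2.03, 2.49, 2.36 and 2.34 on the controls and 1.26, 1.71, 1.55, 1.68 and 1.29 at the medium dose, and fell by 0.75, 0.85 and 1.15 (each ± 0.11 SE; adjusted p = 0.00022, 4.3e-05 and 3.97e-07). The chaperone Hsp90b1 (GRP94) fell by 0.68, 0.79 and 1.06 (each ± 0.11 SE; adjusted p = 0.000999, 0.000154 and 1.95e-06). Calr, which folds glycoproteins, changed by -0.79 (adjusted p = 0.0834), -1.05 (0.0122) and -1.41 (0.000515), and Manf by -1.14 (0.0286), -0.56 (0.39) and -1.07 (0.0212). Low dose replicate 4 read -2.69 for Manf and the other low dose arrays -0.82 to -0.23, and without that array the low dose change was -0.7 and still called. Manf lost its low dose call without control replicate 1, 2, 3 or 4 (-1.21 to -1.01) and its high dose call without control replicate 2 or 4 or high dose replicate 2 or 3 (-1.05 to -0.94), and the list had 3 genes called lower at the low dose without control replicate 1. Sdf2l1 and Creld2 were lower at all 3 doses, Pdia4 at the medium and high dose and Xbp1, the factor that IRE1 activates, at the high dose. Dnajb9, Edem1, Herpud1, Hspa5 and Hyou1 were called at none. Hspa5 (BiP), the best known chaperone of this response, changed by -0.33 at the high dose (adjusted p = 0.0412), under the 1.5-fold limit. Of the sensor genes in the list, Atf6 was called higher at all doses (0.64, 0.71 and 0.69, with limma adjusted p = 0.00334, 0.00109 and 0.000679). Ern1, which encodes IRE1, was called higher at the low dose only (1.2, limma adjusted p = 0.0445).

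The paralogues of the 10 genes did not rise with them. Of 6, limma called 3, 4 and 4 lower at the low, medium and high dose and 0 higher. Sesn3 read 1.82, 0.85, 0.97, 0.7 and 0.8 on the controls and -0.22, -0.1, -0.38, -0.62 and -0.44 at the medium dose. It fell by 0.96 ± 0.15 (SE), 1.38 ± 0.16 and 1.6 ± 0.15 (adjusted p = 0.000698, 1.01e-05 and 5.49e-07), and Sesn1 by 0.77, 1.02 and 1.01 (adjusted p = 1.16e-05, 3.32e-07 and 9.64e-08). For both, every exposed array was below every control, the reverse of Sesn2. Ddit4l fell by 0.8, 0.83 and 1.2 (adjusted p = 0.0347, 0.0236 and 0.000602). Its call was lost when any of 7 single arrays was left out at the low dose (control replicates 1, 3 and 4 and low dose replicates 2, 3, 4 and 6; -0.79 to -0.7) or any of 6 at the medium dose (the same controls and medium dose replicates 2, 3 and 5; -0.84 to -0.68). Trib2 was lower at the medium and high dose by its brighter probe (-0.89 and -1.08; adjusted p = 0.00358 and 0.000303), while its other probe changed by -0.12 and -0.06. Trib1 and Chac2 were not called.

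Of 5 genes that CHOP or cell death programmes involve, 1, 2 and 2 were called higher. Bcl2, Bcl2l11 and Tnfrsf10b were called at no dose, and the changes of the 5 genes ran from -0.27 to 1.07 at the high dose. Bbc3, which encodes the cell death protein PUMA, rose by 0.72, 0.82 and 1.07 (adjusted p = 0.00917, 0.00255 and 8.1e-05). Ero1a, an oxidase that CHOP raises, was called at the medium (0.94 ± 0.24 SE, adjusted p = 0.0203) and high dose (0.8 ± 0.23, adjusted p = 0.0332), and 12 and 19 of 45 alternatives lost those calls. Single arrays were enough: at the medium dose control replicate 1, 3 or 4 or medium dose replicate 3 or 4 (0.76 to 0.92), and at the high dose the same controls, low dose replicate 5 or high dose replicate 2, 4, 5 or 6 (0.62 to 0.8). Without any of these arrays the number called in the list was 1. Bbc3 and Sesn2 are also known targets of p53, which FE1 cells are said to retain. Of 5 p53 targets, 1, 1 and 3 were called higher: Trp53inp1 at all doses (0.83, 0.86 and 1.13; adjusted p = 0.00837, 0.00463 and 0.000176), and Mdm2 (0.69, adjusted p = 0.000116) and Cdkn1a (0.66, adjusted p = 0.00815) at the high dose. Cdkn1a was not called there without control replicate 1 (0.54), and without control replicate 2 the list had 2 genes called at the low dose. Ccng1 and Btg2 were called at no dose, and the changes of the 5 genes ran from -0.43 to 1.13 at the high dose. The other Trp53inp1 probe changed by 0.29, 0.48 and 0.47 in order of dose (adjusted p = 0.377, 0.0581 and 0.0447) and was called at none. The other Cdkn1a probe changed by 0.41 at the high dose (adjusted p = 0.176) and was not called. The part of p53 in the Sesn2 and Bbc3 changes was not tested.

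Without low dose replicate 1 and medium dose replicate 2, the number of the 10 genes called higher stayed at 6, 7 and 7 in order of dose. Without all 6 arrays that lay nearest to another group, which left 4 low, 2 medium and 5 high dose arrays, 5, 4 and 7 were called. Asns dropped out at the low dose, and Atf4, Asns and Sesn2 at the medium dose, where their log2 changes were 0.68, 0.79 and 0.79. Ddit3 then changed by 1.24, 1.61 and 1.93 in order of dose and Atf3 by 2.3, 2.88 and 3.23. Among the listed genes, the ATF6 and IRE1 genes called lower were 4, 6 and 8 without the pair and 3, 2 and 7 without the 6 arrays. The synthetases called higher were 3, 6 and 6 and then 3, 1 and 4, the transporters 4, 3 and 4 and then 3, 0 and 4, and the secreted and other ATF4 targets 4, 3 and 5 and then 4, 2 and 5.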

How the data were processed

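RNA of the 22 samples was hybridised to Agilent 2-colour mouse arrays, without exchange of the dyes, so only a difference between groups is free of a probe's dye bias. The labels gave the group and number of each sample. The scanner files deposited by the authors give, per spot and channel, a median intensity of the pixels and another of the surrounding background. Per the file headers they were made with Feature Extraction 10.7.3.1 on a G2505C scanner, on a grid annotated to mm9, while the methods of the study name another version and scanner. The deposited files also hold log10 ratios computed by the scanner software. The series matrix deposited by the authors holds log2 ratios of sample to reference with 1 value per probe, and its normalization is not given in the sources used here. Both ratios were used as alternatives only.

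The 3671 control spots of each array were dropped, spots flagged as outliers gave no value, and the median signals, with no background subtracted, were turned into log2(Cy5/Cy3) and fitted by loess array by array. A probe counted as detected above a limit in the Cy5 channel set by 308 negative control spots (their mean, trimmed by 5%, plus 3 SDs). Arrays give no read depth, and their number limits the precision. The comparisons used limma (version 3.58.1, R 4.3.3) on all 22 arrays with terms for group and slide (prior degrees of freedom 5.51) and Benjamini-Hochberg adjustment over 55681 probes. The shrinkage test of the study's MAANOVA was replaced by limma. The scripts were also tested on simulated data, with spreads and missing values taken from these arrays. Each change is adjusted for slide, so it can differ from the difference of the plain group means. A gene stands for its brightest probe, that with the highest mean Cy5 signal.

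The 10 genes, the 11 lists and the motifs were chosen with earlier results of these data known. Named beside the 10 genes were up to 4 genes per list with the largest high dose change among those called at any dose, genes needed where a count was 5 or fewer, and the 3 nearest genes to Atf4, Ddit3 and Atf3. Mthfd1l, Psph, Hspa5, Jdp2, Pck2 and Vldlr were named after their values were seen. Iars, Slc1a4 and Yars were named as holders of the motif that were called at no dose. Pycr1 had no probe matched to it. Of 55681 probes, 26413 matched a symbol through their accession in a RefSeq table of GRCm38.p6, from which the promoter windows also come. Array coordinates on mm9 were not used.

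Sample numbers were shared between groups. Over 19430 probes, the deviations of arrays with the same number from their group means correlated at 0.174 to 0.855 in 31 pairs (median 0.555). Those with other numbers correlated at -0.77 to 0.584 in 150 pairs (median -0.164). Arrays numbered 1 and 2 were all on slide 1, those numbered 3 on slide 3 and those numbered 4 on slide 2. Slide effects were not removed here, so these correlations cannot tell a pairing by number from a shared slide. A fit with the number as a block in place of the slide term was run as an alternative. Because number and slide largely coincide, it is not a separate check of the slide fit. The alternatives changed the background, normalization, ratio source, detection, fold limit, probe choice, test and samples, and left out each array and each slide in turn.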

Additional observations from a re-analysis of the deposited data

Results flagged for a closer look

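In 3 of the 40 groups of arrays of the 10 genes, 1 array lay far from the others of its group, where chance flags about 1 in 20 groups. Ddit4 read -1.37 on low dose replicate 4, and the nearest array of that dose read -0.6, a gap of 0.693 of the group's whole range. Sesn2 read -0.5 on control replicate 5 against 0.12 on the nearest control, a gap of 0.719 of the range. Psat1 read 1.03 on control replicate 3 against 0.76 on the nearest control, a gap of 0.819 of the range.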

How the results depend on the processing

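Atf3, Ddit3 and Chac1 kept their call at every dose under all 45 alternatives. The number of the 10 genes called higher lay between 3 and 7 at the low dose, 4 and 8 at the medium dose and 5 and 8 at the high dose. It fell to 3 at the low dose with median centring in place of loess, which lost Trib3, Asns and Sesn2, and to 4 at the medium dose without the 6 arrays nearest to another group, an alternative chosen after seeing the data, as were the list counts without low dose replicate 1 and medium dose replicate 2. The cause was not tested. Leaving out each array in turn gave 5 to 6, 7 to 8 and 7 to 7 genes in order of dose. With the replicate block in place of the slide term the counts were 6, 7 and 7, as without it, and among the listed genes the block added calls for Gpt2, Cth, Nars, Slc3a2 (higher) and Calr (lower) at the low dose, Lars at the medium dose, and Psph, Slc1a5 (higher) and Eif2ak2 (lower) at the high dose. It changed no other call. Atf4 lost its medium and high dose calls under median centring, a 2-fold limit and the median of both probes, and its medium dose call also without the slide term. The change of Phgdh at the medium dose turned its sign under 9 alternatives and that of Ddit4 at the high dose under 4, and neither was called. Under median centring the synthetases called higher at the high dose were 1 in place of 6, the transporters 1 in place of 4 and the ATF6 and IRE1 genes called lower 5 in place of 8, while the paralogues called lower stayed at 4 under all alternatives at that dose. Beside the values of Atf3, Atf4, Fgf21, Manf, Cth and Gpt2 given above, these called values moved by over 1.5 times. Cebpa changed by 1.2 at the medium dose by the ratio of the scanner software, and Aars by 0.47 at the high dose with the median of its probes. Without slide 1, Cth changed by 0.49 at the medium dose, where it was not called, and Slc7a11 by 0.55. Without the 6 arrays, Slc7a11 and Slc6a9 changed by 0.56 and 0.43 at the medium dose. Manf changed by -0.73 at the low dose without slide 2.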
